A study of Mus musculus with 9 samples.

Results

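These results describe the 1-kb windows of the mouse genome whose CpG methylation stayed at 80% or more in embryonic stem cells (ESCs) without *Dnmt3a*. Whole genome bisulfite sequencing (WGBS) tables of 3 genotypes of J1 ESCs were used, namely wild type (WT), *Dnmt3a*-/- (*Dnmt3a* KO) and *Dnmt3b*-/- (*Dnmt3b* KO) cells. All were of the 129S4/SvJae strain and, according to the methods, were kept on gelatin in serum with LIF at similar passage numbers. For each genotype 3 libraries had been merged by the authors into 1 table, so that each level given here is 1 pooled value without replicate error. No test between genotypes was possible, and intervals cover counting error only. The window level is the mean, over the CpGs that had 5 or more reads in each of the 3 tables, of methylated reads divided by all reads, and a window needed at least 5 such CpGs. Windows with a level of at least 80% in WT are called WT-high. Members were the WT-high windows with at least 80% in *Dnmt3a* KO as well. They numbered 20032 of 1067454 windows with values in all 3 tables (1.88%), or 2.15% of the 929768 WT-high windows.

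DNMT3A and DNMT3B are the enzymes that place methyl groups on CpGs that carry none on either strand, whereas DNMT1 copies the pattern to the new strand after replication. Without one of the de novo enzymes, CpGs that are imperfectly copied lose methylation over many divisions unless the other enzyme or DNMT1 restores it. Retrotransposons with long terminal repeats (LTRs) consist of an internal part between a pair of identical repeats. Some of their families, but not all, are known as regions whose methylation ESCs keep with particular tenacity. Bisulfite turns unmethylated cytosine into uracil, so that a cytosine still read as cytosine counts as methylated.

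CpGs measured in all tables had a median coverage of 22 reads in the WT table, 20 in that of *Dnmt3a* KO and 21 in that of *Dnmt3b* KO. Values in WT were used for 14 chromosomes, with chromosome 4 in part, and both KO tables also gave values for chromosomes 5 to 9. In the *Dnmt3a* gene, 12 consecutive CpGs covered in WT had no read in *Dnmt3a* KO ESCs and overlapped 2 exons, and in *Dnmt3b* 30 consecutive CpGs over 4 exons had none in *Dnmt3b* KO ESCs.

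The level in WT and in *Dnmt3a* KO ESCs chose the members and is therefore a description. The median member had 94.8% in WT (quartiles 92.6% and 96.5%) and 82.4% in *Dnmt3a* KO ESCs (quartiles 81.0% and 84.4%). The other WT-high windows had medians of 92.4% and 58.4%. Most members thus lay close to the limit: 3911 had 85% or more in *Dnmt3a* KO ESCs, 508 had 90% or more, and 30 had 95% or more. The 2549 windows just inside the limit, up to 0.5 points above it, had a median of 94.5% in WT, 90.8% in *Dnmt3b* KO and 9 CpGs. The 2762 WT-high windows just outside it, up to 0.5 points below, had 94.4%, 90.9% and 10 CpGs.

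To see whether these windows also kept methylation without the other de novo enzyme, their level in *Dnmt3b* KO ESCs was examined, which the rule did not use. Members had a median of 91.5% in *Dnmt3b* KO ESCs, compared with 86.3% in the other WT-high windows, and 97.2% of members had at least 80% there, against 78.2% of the others. A fall from WT of over 20 percentage points was found in 133 members, or 0.664% (95% exact interval 0.556% to 0.786%), against 5.11% of all windows and 4.14% of WT-high windows. The share in members moved with the processing, to 0.327% with at least 10 reads per CpG and 0.0814% with at least 10 CpGs per window. Chosen on forward-strand and measured on reverse-strand reads it was 1.95%, against 6.54% of the other WT-high windows measured in that way. The median difference between *Dnmt3b* KO and WT was -3.11 points in members and -6.01 points in the other WT-high windows. Members also started from a higher WT level, so windows were compared within steps of WT. Among windows with 90% to 95% in WT, the *Dnmt3b* KO median was 91.1% in 8599 members and 87.1% in 400625 other windows. Among those with 95% to 100% it was 92.2% in 9433 members and 89.0% in 227985 other windows, the smallest difference of the 4 steps. In the step from 80% to 85%, which had the largest, it was 88.6% in 338 members and 77.7% in 85590 other windows. Both differences from WT share the WT reads with the rule.

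**Figure D1:**
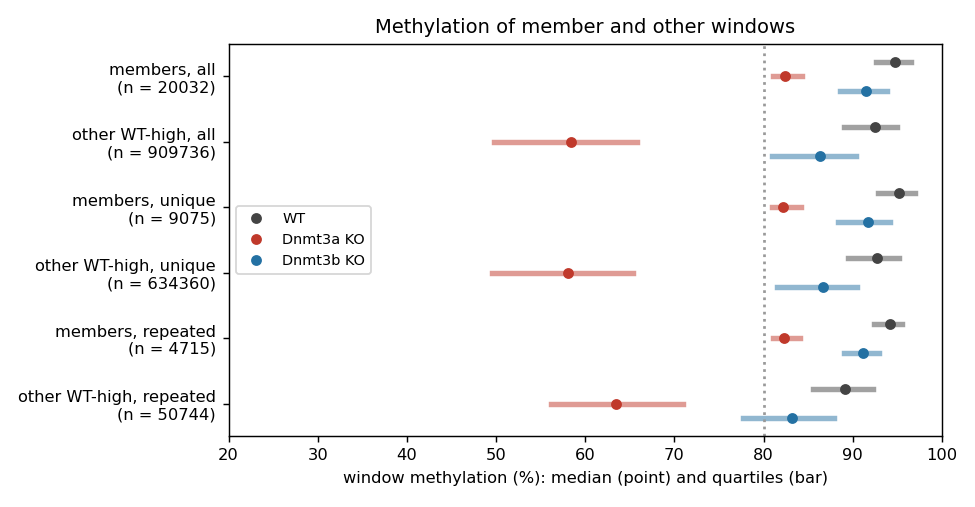
Window methylation (%, x axis) of each genotype for members and other WT-high windows, over all sequence and split into unique and repeated sequence; points are medians, bars run from the lower to the upper quartile, and the dotted line marks the limit of 80%. Members had a *Dnmt3b* KO median of 91.5% and the other WT-high windows 86.3%; the *Dnmt3a* KO values of members were set by the rule.

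Members also differed from the other WT-high windows in the kind of sequence they held, which the rule did not use. Each window was classed by how often its 31-base words, sampled every 25 bases, occur in the mm9 genome. A window was called unique if at least 90% of its words occur once, repeated if at least 50% occur 10 or more times, and mixed otherwise. Of the members, 4715 (23.5%; 95% exact interval 23.0% to 24.1%) were repeated, compared with 5.58% of the other WT-high windows. Windows on both sides of the limit were alike in this, with 22.1% repeated among those just inside and 23.6% among those just outside it. It was 19.4% of members with 85% or more in *Dnmt3a* KO ESCs, 13.6% of those with 90% or more and 23.3% of the 30 with 95% or more. Unique sequence made up 45.3% of members and 69.7% of the others. When windows were chosen on forward-strand reads alone, 15.7% of the chosen and 4.20% of the other WT-high windows were repeated, and 60.4% and 75.8% were unique. Read from the sequence side, 8.50% of repeated, 2.70% of mixed and 1.41% of unique WT-high windows were members. Depth was similar: the median reads per CpG in *Dnmt3a* KO ESCs were 23.5 in repeated and 20.9 in unique members, and 22.1 in the other WT-high windows.

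Among windows of up to 49 CpGs, the share of members in repeated and mixed sequence was lowest at 7 to 9 CpGs and rose from there. With 50 or more CpGs, 48.1% of repeated WT-high windows were members, but 0 of 8 mixed ones. In unique sequence the share of members was lower at intermediate CpG numbers. Repeated sequence had 3.40% of WT-high windows with 5 or 6 CpGs, 2.56% with 7 to 9, 24.3% with 20 to 29 and 36.2% with 30 to 49 CpGs. The corresponding shares were 2.37%, 2.01%, 9.32% and 18.1% in mixed sequence. In unique sequence they were 1.86%, 1.38%, 1.15% and 1.59%, with the lowest, 1.10% (1.02% to 1.18%), at 15 to 19 CpGs. Accordingly, 85.8% of the 1338 members with 30 to 49 CpGs were repeated sequence, against 43.5% of the other WT-high windows of that CpG number. The *Dnmt3b* KO median of members hardly varied with CpG number, from 90.6% at 5 or 6 CpGs to 92.1% at 20 to 29 CpGs. Of the 3638 members with 20 or more CpGs, 0 fell by over 20 points in *Dnmt3b* KO ESCs, whereas 4.40% of the other WT-high windows with 20 to 29 CpGs did.

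**Figure D2:**
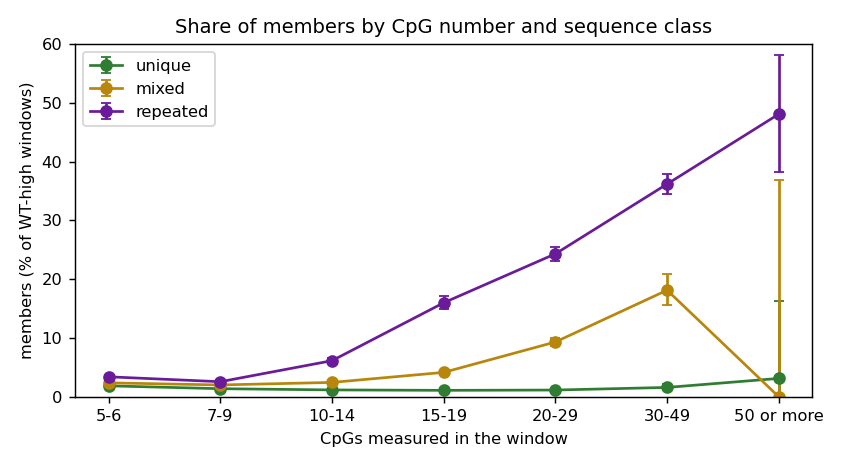
Members as a percentage of WT-high windows (y axis) by the number of CpGs measured in the window (x axis) for unique, mixed and repeated sequence; bars are 95% exact binomial intervals. Repeated sequence fell from 3.40% at 5 or 6 CpGs to 2.56% in the next bin, then rose to 36.2% at 30 to 49 CpGs. Unique sequence stayed between 1.10% and 1.86% up to 49 CpGs.

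No repeat annotation was used, and repeats were therefore grouped from the reference sequence alone. Elements were found as a pair of direct repeats of 200 to 1500 bases that lie 1000 to 12000 bases apart, the layout of LTR elements, and were joined into families if their repeats shared at least 60 of their 31-base words. Families carry a number by size and no class name. Of the members, 3607 (18%) lay by at least 500 bases in such an element, against 1.96% of the other WT-high windows. A single family, family 2 with 1446 elements, held 2748 members, which is 13.7% of all members and 48.7% of those with 20 or more CpGs. Under other settings the share of all members ranged from 7.87% when windows were chosen and measured on separate strands to 26.4% with at least 10 CpGs per window. Among the other WT-high windows, family 2 made up 0.499%, and 5.46% of those with 20 or more CpGs. The sequence is shown for the element of middle *Dnmt3a* KO level in family 2 and for that in family 4. Family 2 was picked for having the most members, and family 4 for the lowest share of members among families with many WT-high windows. The direction of their difference in members and in *Dnmt3a* KO level was therefore set by the choice. Their build differed too, with median repeats of 349 and 493 bases and median spacings of 4899 and 5936 bases. Both sequences are the first 250 bases of the element on the + strand of mm9, with CpGs in capitals. The family 2 element starts at chr4:134740410-134740659, 63843 bp from the transcription start site (TSS) of *Runx3*, and holds 15 CpGs in this stretch. The family 4 element starts at chr2:131746210-131746459 and holds 4, in an element that overlaps the prion protein gene *Prnp* and its neighbour *Prnd*.
family 2: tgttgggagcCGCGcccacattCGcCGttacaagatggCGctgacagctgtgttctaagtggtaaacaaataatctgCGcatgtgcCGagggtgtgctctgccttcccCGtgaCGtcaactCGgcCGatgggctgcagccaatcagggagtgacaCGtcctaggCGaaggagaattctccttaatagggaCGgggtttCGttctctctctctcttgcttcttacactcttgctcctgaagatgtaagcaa
family 4: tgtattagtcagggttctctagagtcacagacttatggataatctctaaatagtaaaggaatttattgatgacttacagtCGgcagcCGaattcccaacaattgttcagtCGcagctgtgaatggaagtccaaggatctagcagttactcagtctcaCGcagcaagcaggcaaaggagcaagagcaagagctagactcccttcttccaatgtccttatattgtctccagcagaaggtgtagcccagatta

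The 5 windows of the printed family 2 element had a mean of 94.6% in WT, 78.3% without *Dnmt3a* (74.8% to 83.0%) and 92.3% without *Dnmt3b*, and 1 of them was a member. The 4 windows of the printed family 4 element had 91.4%, 64.3% (59.3% to 70.3%) and 86.2%, and 0 were members. Both elements were chosen for a middle level within their family. Over all 7355 windows of family 2 the medians were 93.7% in WT, 78.5% without *Dnmt3a* and 90.5% without *Dnmt3b*, and 37.7% (36.6% to 38.8%) of its WT-high windows were members. Over 2623 windows of family 4 they were 90.5%, 64.4% and 85.5%, and 0.935% (0.600% to 1.39%) of the WT-high windows were members. Family 2 repeats held a median of 5.40 CpGs per 100 bases and family 4 repeats 1.22.

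Among the 12 families with at least 30 elements and 20 WT-high windows, family 2 had the highest share of members. Family 6, with repeats about 8139 bases apart, followed with 27.5% and family 13, with 7985 bases, with 19%; their *Dnmt3a* KO medians were 76.2% and 77.0%. Families with few CpGs in their repeats tended to hold few members, as family 3 had 0.253 CpGs per 100 bases with 1.35% members and family 13 had 3.26 with 19%. The order was not strict, since family 12 had 6.79 with 14.6% and family 6 had 2.13 with 27.5%. The 5 members with most CpGs, 61 to 67 each, all lay in family 6, with 80.1% to 85.2% in *Dnmt3a* KO and 88.6% to 90.7% in *Dnmt3b* KO ESCs. Families 1 and 3, the first and the third in size, had 2.59% (2.10% to 3.17%) and 1.35% (0.495% to 2.91%) members, close to the 2.15% over all WT-high windows, and *Dnmt3a* KO medians of 58.9% and 56.7%, near the 56.8% of all windows. Being a repeat was therefore not sufficient to be a member. Reads from near-identical copies cannot be told apart by their sequence, so a level inside an element may mix copies, and how such reads were placed was not tested.

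Chromosomes 5 to 9 lack WT values here and were not used to choose members. They hold further loci of the same families, but these are not an independent check. In family 2 windows a median of 87.2% of the sampled words occur 100 or more times in the genome. Reads of near-identical copies may thus be shared with the chromosomes that the rule used. On these 5 chromosomes, 2546 windows of family 2 had a median of 79.3% in *Dnmt3a* KO ESCs, compared with 56.1% over all 435210 windows. A level of at least 80% was found in 44.3% of the family 2 windows and in 1.77% of all windows there. Family 4 had a median of 64.5% with 1.27% of windows at 80% or more, and family 6 had 76.8% with 29%. In *Dnmt3b* KO ESCs family 2 had 91%, compared with 85% over all windows. The measured levels of the families were nearly the same as on the chromosomes used by the rule, apart from family 10 with 5 windows. The part of shared reads in this was not tested.

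**Figure D3:**
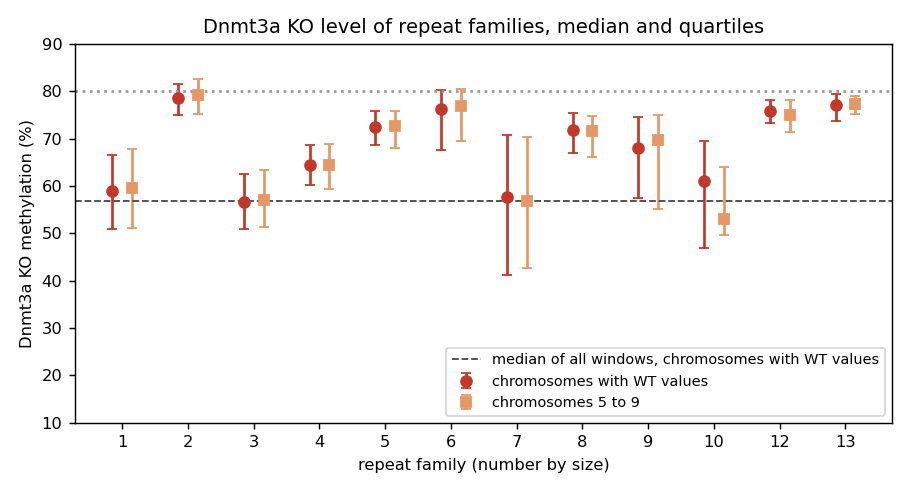
*Dnmt3a* KO methylation (%, y axis) of windows in 12 repeat families (x axis, numbered by size) on chromosomes with WT values (circles) and on chromosomes 5 to 9 (squares); points are medians, bars run from the lower to the upper quartile, the dashed line is the median of all windows and the dotted line the limit of 80%. Family 2 had 78.5% and 79.3%, and family 4 had 64.4% and 64.5%.

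Within family 2 the measured level was similar in most elements. Since reads of near-identical copies may be mixed, it cannot be assigned to single copies with certainty. Of 1365 elements with at least 3 windows, 1166 (85.4%) held at least 1 member, but 9 consisted of members alone. The mean level per element in *Dnmt3a* KO ESCs had quartiles of 77.1% and 80.1% around a median of 78.8%, with 376 elements at 80% or more and 10 under 60%. The limit of 80% hence lay near the upper quartile of a narrow distribution, with 27.5% of elements at or above it. An element 97493 bp from the TSS of *Mup20*, a major urinary protein gene, had 5 of 5 windows as members, with 83.8% in *Dnmt3a* KO ESCs. In contrast, the element with the lowest *Dnmt3a* KO level among those with at least 5 windows, on chromosome 13 at 208415 bp from the TSS of *Gm5444*, had 65.4% in WT, 48.7% without *Dnmt3a* and 51.3% without *Dnmt3b*. It was lower in all 3 genotypes. Its 196 CpGs had 12584 *Dnmt3a* KO reads, whereas the median family 2 window had 25.3 reads per CpG in that genotype. The part of depth in its level was not tested.

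The level in *Dnmt3a* KO ESCs was lower outside than inside family 2 elements and fell further along the flank. The first 250 bases inside family 2 elements had a mean CpG methylation of 81.7% in *Dnmt3a* KO ESCs and the first 250 bases outside had 72.9%. From 750 to 1000 bases outside it was 65.2%, and in the outermost bin, 5 kb from the edge, it was 54.8%. In WT ESCs the same 4 bins had 95.6%, 92.7%, 89.0% and 85.3%, and in *Dnmt3b* KO ESCs 92.9%, 88.4%, 83.6% and 78.4%. The step from inside to the far end of the flank was therefore larger in *Dnmt3a* KO ESCs than in the other genotypes. Family 2 was picked for having the most members, so a high *Dnmt3a* KO level inside its elements was set by the choice. The larger step in this genotype is therefore a description. At family 4 elements the first bin inside had 59.1%, the first outside 57.8% and the outermost 53.3% in *Dnmt3a* KO ESCs. Further inside family 4 the level varied between bins, up to 69.6% at 500 to 750 bases from the edge. A raised flank was not particular to family 2. In *Dnmt3a* KO ESCs the first bin outside and the outermost had 73.8% and 48.5% in family 8, where 3.14% of WT-high windows were members. They had 80.4% and 61.9% in family 12, and 72.3% and 54.0% in family 13. The order was reversed in family 3, with 55.9% and 61.0%, and in family 10, with 52.6% and 73.7%.

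**Figure D4:**
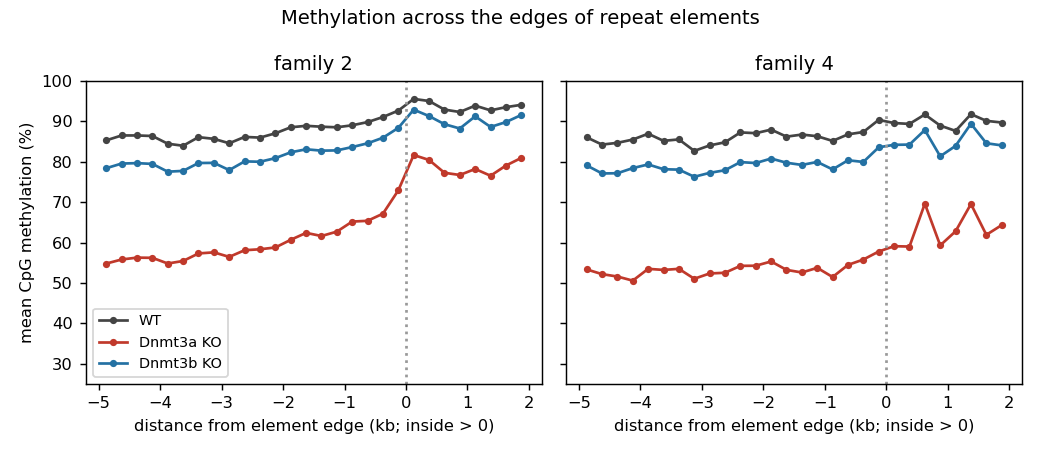
Mean CpG methylation (%, y axis) in bins of 250 bases against the distance from the element edge (kb, x axis; values above 0 lie inside the element, both ends folded together) for families 2 and 4, with 1 line per genotype. In *Dnmt3a* KO ESCs family 2 dropped from 81.7% in the first bin inside to 54.8% at the far end of the flank, and family 4 from 59.1% to 53.3%, with up to 69.6% further inside.

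The raised flank of family 2 was seen in windows classed as unique as well, in which at least 90% of the sampled words occur once. Of 532 unique WT-high windows centred within 1 kb of a family 2 edge, 24.2% (95% exact interval 20.7% to 28.1%) were members. The share was 13.3% at 1 to 2 kb, 4.71% at 2 to 5 kb, 2.03% at 5 to 20 kb and 1.35% at more than 20 kb. The *Dnmt3a* KO median of these windows fell by distance from 72.0% to 58.2%. Most unique windows lay far from family 2. More than 20 kb from any family 2 element were 8404 of the 9075 unique members and 624749 of all 643435 unique WT-high windows.

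To see how far a level depends on the reads that chose the windows, the rule was applied to part of the reads. Windows were chosen on the reads of the forward strand and then measured on the reads of the reverse strand, at CpGs with at least 5 reads on each strand in all genotypes. Of 247096 such windows, 18391 were chosen. In unique sequence, 11103 chosen windows had a median of 83.6% on the forward and 71.7% on the reverse strand, and 21.8% of them had 80% or more again, against 5.77% of the other unique WT-high windows. In family 2, 1447 chosen windows had 83.4% and 82.0%, and 64.1% had 80% or more again. Its 1713 WT-high windows that were not chosen had 78.9% on the reverse strand, and 43.4% of them had 80% or more. The other unique WT-high windows had 59.1% and 59.5%. The unique windows chosen on forward-strand reads thus lay above the other unique windows on the reverse strand as a set, but most of them did not reach the limit again. They are not the same windows as the 9075 unique members, whose choice used the reads of both strands. Among unique windows with 20 or more CpGs, 37.8% of the 37 chosen had 80% or more again.

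**Figure D5:**
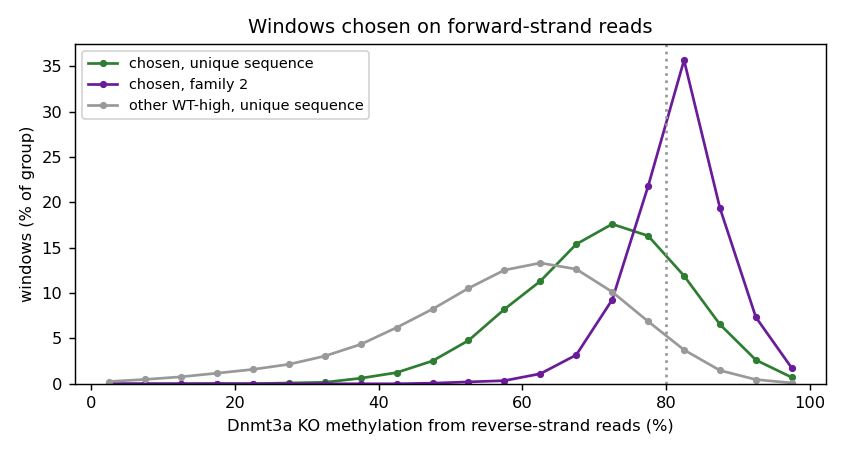
*Dnmt3a* KO methylation from reverse-strand reads (%, x axis, steps of 5 points) for windows chosen on forward-strand reads, as a percentage of the windows of each group (y axis); the dotted line marks 80%. The median was 82.0% for chosen windows of family 2, 71.7% for chosen windows of unique sequence and 59.5% for the other unique WT-high windows.

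Members lay next to each other more often than other WT-high windows lay next to a member. Of all members, 3954 (19.7%; 19.2% to 20.3%) had another member as a direct neighbour, while 2.65% of the other WT-high windows had a member beside them. The share of members depended on the limit, with 29.5% at a *Dnmt3a* KO limit of 75% and 4.65% at 85%. The share was 9.0% for unique members and 2.10% for the other unique WT-high windows. In family 2 it was 56.1% (54.3% to 58.0%) for members and 53.5% (52.0% to 55%) for the other WT-high windows, so members and the rest of this family were nearly alike in it. Runs of directly adjacent members numbered 1230 of 2 windows, 359 of 3 windows and 94 of 4 or more. Of these 94 runs, 49 touched a family 2 element. Family 2 was picked for having the most members, so runs in it were favoured by the choice. The longest run had 7 windows and 184 CpGs, lay in *Bzw2* at chr12:36827001-36834000, and had mean levels of 95% in WT, 86% without *Dnmt3a* and 95.1% without *Dnmt3b*. Its windows had between 80.4% and 91.1% in *Dnmt3a* KO ESCs. The windows before it had 69.5%, 76.8% and 74.3%, and those that follow had 76.3% and 59.5%. A run ends where the rule is not met, so a lower level directly beside it was fixed by the rule. The run in *Bzw2* held unique, mixed and repeated windows, and 2 of them belonged to family 5.

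Of the 12 runs of 6 or 7 windows, 5 overlapped protein-coding genes, namely *Bzw2*, *Map3k4*, *Tln1*, *4930534B04Rik* and *Pppde1*. The run in *Tln1*, which encodes talin, the protein that ties integrins to the actin skeleton, consisted mainly of unique windows that held at least 100 bases of exon. Its 6 windows at chr4:43552001-43558000 held 109 CpGs and had 97.8% in WT, 82.9% without *Dnmt3a* and 93.5% without *Dnmt3b*. In *Dnmt3a* KO ESCs the 3 windows before it had 83.7%, 70.7% and 78.0%, and the 3 windows after it had 74.9%, 73.8% and 74.6%. The window with 83.7% was itself a member, and windows directly beside a run fail the rule by definition. *Map3k4*, a kinase upstream of the p38 and JNK pathways, had 95.9%, 83.7% and 94.2% over 6 windows and 118 CpGs.

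To show such sequence, the 200 most CpG-rich bases of 3 unique members are given on the + strand of mm9 with CpGs in capitals. They are the member of the *Tln1* run with most CpGs and 2 of the members with the highest *Dnmt3a* KO level among unique windows with 20 or more CpGs. The stretches lie at chr4:43556293-43556492 in *Tln1*, at chr1:153849340-153849539 in the body of *1700025G04Rik* and at chr16:90054279-90054478, 79057 bp from the TSS of *Tiam1*. *Tiam1* encodes an exchange factor of the GTPase Rac.
Tln1: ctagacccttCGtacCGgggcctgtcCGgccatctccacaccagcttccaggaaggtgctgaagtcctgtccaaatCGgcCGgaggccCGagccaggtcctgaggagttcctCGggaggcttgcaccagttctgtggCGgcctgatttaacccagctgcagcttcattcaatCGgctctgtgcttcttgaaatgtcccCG
1700025G04Rik: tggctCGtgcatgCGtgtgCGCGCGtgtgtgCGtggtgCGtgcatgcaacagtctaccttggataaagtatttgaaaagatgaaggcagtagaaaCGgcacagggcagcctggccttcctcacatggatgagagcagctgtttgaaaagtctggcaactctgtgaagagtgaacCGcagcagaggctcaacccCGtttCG
Tiam1: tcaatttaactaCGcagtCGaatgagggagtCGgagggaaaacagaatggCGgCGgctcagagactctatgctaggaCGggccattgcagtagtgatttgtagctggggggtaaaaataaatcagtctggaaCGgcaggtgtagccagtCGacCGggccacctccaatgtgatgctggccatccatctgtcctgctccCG

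The window near *Tiam1* had 94.3% in WT, 93.6% without *Dnmt3a* and 91.4% without *Dnmt3b* over 22 CpGs. It was chosen for its *Dnmt3a* KO level, and its 475 *Dnmt3a* KO reads had a methylated share of 93.1% (95% Wilson interval 90.4% to 95%). The window in *1700025G04Rik* had 97.9%, 91.8% and 92.2% over 23 CpGs. Tandem repeats over at least 100 bases were present in 2 of the 317 unique members with 20 or more CpGs (0.631%) and in 0.343% of the other unique WT-high windows of that CpG number. Of these 317 members, 66.2% lay in gene bodies and 45.7% (40.2% to 51.4%) held at least 100 bases of exon, compared with 67.0% and 38.2% of the other windows of the same kind.

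Members lay less often in genes than other windows over all sequence and in mixed and repeated sequence, whereas in unique sequence the shares were close. Inside bodies of protein-coding genes were 32.5% of members (31.8% to 33.1%) and 42.5% of the other WT-high windows. In unique sequence the shares were 46.3% (45.3% to 47.4%) and 47.0%, in mixed sequence 25.2% (24.2% to 26.3%) and 35.3%, and in repeated sequence 15.4% (14.4% to 16.5%) and 17.8%. Chosen on forward-strand reads, windows had 44.1% in gene bodies against 51.0% of the other WT-high windows measured on both strands, with 57.9% and 55.5% in unique sequence. Promoters, taken as 500 bp on both sides of the TSS, touched 0.33% of members and 0.841% of the other WT-high windows. Along the bodies of genes of at least 20 kb, the share of unique WT-high windows that were members was 1.11% (1.02% to 1.20%) in the part next to the TSS when each body was cut into 5 equal parts, 1.47% in the middle part and 1.65% (1.56% to 1.75%) in the last part. Between chromosomes the share of WT-high windows that were members went from 1.43% on chromosome 11 to 2.64% on chromosome 1. The median reads per CpG in *Dnmt3a* KO ESCs were 24.2 on chromosome 11 and 25.1 on chromosome 1, above the 20.9 to 22.9 of the other chromosomes.

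Of 13961 protein-coding genes with windows, 2848 held at least 1 member in the body. Among the 8405 genes with at least 10 windows the highest share was 70.0%, for *Gm1975*, in which 7 of 10 windows were members and all 7 belonged to family 2. In *Haus4*, which encodes a subunit of the augmin complex that seeds microtubules in the spindle, 6 of 14 windows were members, 0 of them in repeated sequence and 4 with exon. They had a mean of 94.1% in WT, 85.9% without *Dnmt3a* and 91.7% without *Dnmt3b*. The 6 other WT-high windows of *Haus4* had 91.9%, 74.2% and 86.3%, where the order of the *Dnmt3a* KO levels was fixed by the rule. *Flg2*, a filaggrin-like gene of the epidermis, had 8 of 20, of which 7 were repeated sequence, and *Rtl1*, an imprinted gene derived from a retrotransposon, had 4 of 12, all with exon. The members of *Rtl1* had 95.2%, 83.9% and 90.3%. Other genes with high shares were *Gm10338* with 4 of 11, *Psmg4*, a chaperone of proteasome assembly, with 6 of 17, *4930430F08Rik* with 6 of 18, and the cytochrome P450 genes *Cyp2c54* with 4 of 13 and *Cyp2j13* with 5 of 20.

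Gene groups were then examined over the body and 2 kb upstream, where members made up 1.62% of WT-high windows over all protein-coding genes, a window counted once for each gene. Zinc finger (*Zfp*) genes had 81 members among 3743 WT-high windows (2.16%), led by *Zfp407* with 13, *Zfp277* with 10, *Zfp385b* with 9 and *Zfp438* with 4. In *Zfp277*, 4 of the members were in family 2. Imprinted genes, expressed from a single parental copy, had 19 of 989 (1.92%), with 6 in *Trappc9*, 4 each in *Rtl1* and *Slc38a4* and 2 in *Igf2r*. Germline genes had 11 of 791 (1.39%), with 3 in *Mov10l1*, 2 in *Sycp1* and 1 each in *Dmc1* and *Hormad2*, all genes of meiosis or of transposon silencing in the germline. Olfactory receptor genes had 15 of 1129 (1.33%), 1 each in 15 genes such as *Olfr1238*, *Olfr1302*, *Olfr1341* and *Olfr138*. These shares were near the one over all genes.

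The remaining groups held 5 members or fewer each. Pluripotency genes had 1 member among 505 WT-high windows (0.198%), in *Nr5a2*. Ubiquitously transcribed housekeeping genes had 4 of 532 (0.752%), with 2 in *Psmd1* and 1 each in *Cct4* and *Xpo1*. Ribosomal protein genes had 1 of 102 (0.980%), in *Rpl39l*, clustered protocadherin genes 1 of 74 (1.35%), in *Pcdha11*, and *Hox* genes 0 of 48. No test was run on these counts, since windows of a gene are not independent and members are few. Genes of DNA methylation and demethylation had 5 of 606 (0.825%), with 2 in *Mbd2*, a reader of methylated CpGs, and 1 each in *Dnmt3a*, *Dnmt3b* and *Ehmt1*. The member in *Dnmt3a* had 6 CpGs with 98% in WT, 80.7% without *Dnmt3a* and 90.1% without *Dnmt3b*, and that in *Dnmt3b* had 5 CpGs with 95.6%, 80.4% and 77.5%.

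The *Dnmt3b* KO level varied between single members. Among members with at least 10 CpGs the lowest lay on chromosome 4, 137818 bp from the TSS of *Usp24*, a deubiquitinase gene, with 92.2% in WT, 80.9% without *Dnmt3a* and 69.7% without *Dnmt3b*. Its 168 *Dnmt3b* KO reads had a methylated share of 69.0% (95% Wilson interval 61.7% to 75.5%). The other members of the lowest 5, of which 1 lay in *Clec16a* and the rest were closest to the TSS of *Gm527*, *Gm5277* and *Tmprss15* at distances of 191898 to 632664 bp, had 71.1% to 73.8%, while their level in *Dnmt3a* KO ESCs was 80% to 82.6%. These windows were picked for a low *Dnmt3b* KO level among windows that the rule holds at 80% or more in *Dnmt3a* KO, so the order of both levels was fixed by the choice. The 5 with the highest *Dnmt3b* KO level, in *Ehbp1* and *Liph* and at 13873 to 347206 bp from the nearest TSS, that of *Ccne2*, *1700112E06Rik* or *Nudt12*, had 99.3% to 100% there. In *Liph*, a lipase gene, the 10 CpGs had 91.6% in WT, 81.2% without *Dnmt3a* and 100% without *Dnmt3b*, the last from 182 reads (97.9% to 100%).

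Finally, the base that follows the CpG was examined, since de novo methyltransferases are known to differ in their preference for it. In unique members the methylated share of reads in *Dnmt3a* KO ESCs was 83.9% at CpGs followed by G, 83.1% before C, 81.8% before A and 80.5% before T. In the other unique WT-high windows it was 60.1% before G, 58.0% before A, 55.2% before C and 53.7% before T. The rule chose on the level of these windows in *Dnmt3a* KO ESCs, so the values of members are a description. WT ESCs had 95.6% before C, 95.1% before G, 94.6% before T and 94.3% before A in unique members, and 93.2%, 93%, 91.6% and 91.9% in the other unique windows. In *Dnmt3b* KO ESCs the order in unique members was the one of WT, C with 93.4%, G with 91.8%, T with 91.1% and A with 89.6%, and the other unique windows had the same order with 89.0%, 86.6%, 85.3% and 83.3%. Family 2 was rich in CpGs before G, which made up 31.1% of its CpG cytosines, against 25.7% in the other unique WT-high windows, and in CpGs before C, with 28.2% against 20.2%. Its *Dnmt3a* KO level was 79.5% before G, 78.7% before C, 76.7% before A and 76.5% before T. Family 2 was picked for having the most members, and members are left out of the other unique windows. That family 2 lay above those windows was therefore set by the choice.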

How the data were processed

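WGBS tables of J1 ESCs were analysed, made from 9 libraries that the authors merged into 1 table for each of 3 genotypes. Per the methods and the submitters' processing notes, reads were aligned to mm9 with BSMAP, corrected with BSeQC and counted over CpGs with the mCall module of MOABS, whose versions are not given in the sources used here. The deposited tables hold the counts of all and of methylated reads per CpG, in total and by strand, without normalization. The deposited ratio of each CpG is a fraction from 0 to 1 that the authors calculated from these counts; it was used only to check them, and 0 rows failed. The incomplete last row of the WT table, in chromosome 4, was left out, and what follows in WT was not analysed here.

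Windows, sequence classes, repeat families and gene positions were computed with Python 3.11.15, NumPy 2.4.6, pandas 2.3.3, SciPy 1.17.1 and numba 0.67.0 on the mm9 sequence and the GENCODE annotation of that build, taking the longest isoform of protein-coding genes. Figures were drawn with matplotlib 3.10.9. Window and repeat finding were tested on simulated data. A window was put in a gene body or element by an overlap of 500 bp. The merged tables allowed no replicate test, and the intervals given are 95% exact binomial intervals for shares of windows and Wilson intervals for reads. Neighbouring windows and copies of a repeat are not independent, so that intervals of shares of windows are too narrow. The members and gene lists were chosen with earlier results of these data known, and the repeat families, the split by distance and the split by strand for the families were added after values had been seen. Genes named are those over the 10 longest runs with ties ordered by CpG number, those with the 10 highest shares of members, those at members with extreme *Dnmt3b* KO levels or most CpGs, up to 4 per gene list, and *Dnmt3a* and *Dnmt3b*; genes nearest to printed sequences or elements were named in addition. Alternatives covered the minimum of reads and CpGs, weighting by reads, the placing of windows, the limit, very deep windows and the strand. A gene and a sequence that these rules select are not reported here.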

Additional observations from a re-analysis of the deposited data

How the results depend on the processing

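No paired analysis was possible because the deposited columns carry merged reads with no replicate number, and no replicate could be left out for that reason. Weighting by reads, windows shifted by 500 bp and leaving out windows with over 3 times the median depth left all 5 main results within their 95% intervals, or within 1.5 times for the count. With at least 3 reads per CpG the median *Dnmt3b* KO level of members was 91.5% (91.453%) and 31.7% lay in gene bodies. With at least 10 reads 0.327% fell by over 20 points in *Dnmt3b* KO ESCs, the median *Dnmt3b* KO level was 91.7%, 33.8% lay in gene bodies and 20.5% had a member beside them. With at least 10 CpGs per window there were 9833 members, 0.0814% fell by over 20 points, the median was 91.8%, 29.6% lay in gene bodies and 27.3% had a member beside them. A limit of 75% in *Dnmt3a* KO ESCs gave 61613 members with a median of 90.7%, 36.2% in gene bodies and 29.5% beside another, and a limit of 85% gave 3911 members with 0.844% fallen by over 20 points, a median of 92.3%, 30.3% in gene bodies and 4.65% beside another. Chosen on the forward strand and measured on the reverse strand, 1.95% fell by over 20 points, the median was 92.0%, 44.1% lay in gene bodies and 14% had a member beside them; fewer windows have 5 reads on each strand, and the cause of these differences was not tested. The share of members in family 2 was 13.7%, and under the alternatives, chosen for it after the data had been seen, it ranged from 7.87% by strand to 26.4% with at least 10 CpGs. Of the unique windows chosen on the forward strand, 21.8% had 80% or more again on the reverse strand; the part of depth in this was not tested.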
